A study of Rattus norvegicus with 2 samples.

Results

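The genes described here are those of the proteasome, taken from the deposited table by symbol: every row that begins with Psma, Psmb, Psmc, Psmd, Psme, Psmf or Psmg and a number, without the immunoproteasome genes Psmb8, Psmb9 and Psmb10. The rule found 44 of 21224 rows, and 42 of them entered the comparison, with at least 1 FPKM when the libraries were averaged. FPKM is the read count of a gene divided by its length and by the library's assigned reads. The RNA came from rat cortical neurons of embryonic stage E18, with 1 library titled siNC, a control knockdown, and 1 titled siYthdf3, a knockdown by small interfering RNA of the m6A-binding protein Ythdf3. Neither the time after transfection nor the animals behind each library are stated in the labels. A single library stands for each condition, so differences cannot be set against a spread between replicates and no test between conditions was made.

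The proteasome is the protease that degrades proteins tagged with ubiquitin. Its core particle is a barrel of stacked rings, with alpha subunits at the ends and beta subunits in the middle, and the beta subunits Psmb5, Psmb6 and Psmb7 carry the active sites. A regulatory particle caps the barrel. Its base holds a ring of ATPases that unfold the substrate and thread it into the core, and receptors that bind the ubiquitin chain. Its lid removes ubiquitin. Alternative caps (activators) can replace the regulatory particle, and dedicated chaperones assemble both particles. Because a complete particle needs each subunit in fixed proportion, the genes are often controlled together. In neurons, proteasomes turn over synaptic proteins and clear damaged ones.

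Of the 42 measured rows, 39 encode a subunit, activator, inhibitor or chaperone of the proteasome. The other 3 share the start of the symbol: Psmc3ip, a recombination protein that interacts with Psmc3, Psme3ip1, which encodes a protein that binds Psme3, and the pseudogene Psma6-ps5. The 2 rows below the filter were the pseudogene Psme1-ps1, with 3 reads (siNC) and 2 reads (siYthdf3), and also the Psmb6-like gene Psmb6l1, with 2 and 4 reads. A list of 45 proteasome genes by role was drawn up from background knowledge, and 39 of them were in the table. Psma8, Psmb11, Psmd9, Psmd10, Psme2 and Psme3 were not analysed here.

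The siNC library held 15392218 assigned reads and the siYthdf3 library 22586543. Ythdf3 itself was at 9.38 FPKM in siNC and 6.93 FPKM in siYthdf3, a ratio of 0.739 (exact 95% interval 0.675 to 0.809). Intervals here come from the exact Clopper-Pearson limits on how a gene's reads divide between the libraries, rescaled to a ratio, and cover counting error only. The 9 pan-neuronal markers measured were detected in both libraries, with a summed level of 989 FPKM in siNC and 1135 FPKM in siYthdf3. Of their 9 intervals, 7 lay above 1 and 1 below (Tubb3). Markers of other cells were also at unequal levels: the 10 cell cycle genes summed to 303 and 153 FPKM, with 10 of 10 intervals below 1, and the 8 progenitor markers to 2039 and 1378 FPKM, with 6 of 8 below 1. Summed levels in siNC and siYthdf3 were 157 and 233 FPKM for the 6 astrocyte markers, 30.4 and 18.3 FPKM for the 6 oligodendrocyte markers, 6.53 and 3.14 FPKM for the microglia markers, 3 of 6 measured, and 126 and 151 FPKM for the mesenchymal markers, 4 of 6 measured. Over the 13172 genes compared, 22.2% of intervals lay below 1 and 20% above. Of the 6 astrocyte intervals, 1 lay below 1 (S100b) and 3 above, and Gfap was at 68.2 and 141 FPKM. Below 1 were also 4 of 6 oligodendrocyte and 2 of 3 microglia intervals, with 0 above in either list. Of the 4 mesenchymal markers, 3 were lower in siYthdf3, 2 of them with intervals below 1. Acta2 alone was higher, at 121 and 147 FPKM, and held most of the mesenchymal sums. In siYthdf3 the microglia marker Cx3cr1 was listed at 0, and in siNC the mesenchymal marker Lum was. The part of these differences in the values below was not tested. In bulk RNA, fewer cells of a type and less RNA per cell cannot be told apart.

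Proteasome genes were slightly lower in siYthdf3 across most of the complex. On the scale of log2(FPKM + 0.5), the median difference over the 42 rows was -0.11, against -0.01 over the 13172 genes compared, and the quartiles were -0.22 and -0.04. Below 0 were 39 of 42 rows, where 51.9% of all genes compared were below 0 and 48.1% above. After rescaling to TPM (each library's per-length values brought to the same sum) 30 of 42 rows were below 0, where 43.7% of genes were. Counting intervals lay below 1 for 25 rows and above 1 for 1 row, Psmd7, where 22.2% of all genes lay below 1 and 20% above. The members are more abundant than most genes, and abundant genes have narrow intervals. When only the 3277 genes averaging 20 FPKM or more were counted, 30 of 32 members were below 0, where 55.8% of such genes were. There, 20 of 32 intervals lay below 1 and 1 above, where 37.3% and 28.0% of such genes did. In the 2901 of these genes whose length falls within the members' range, 58.4% were below 0, 39.4% of intervals lay below 1 and 25.4% above. Together the 44 rows took 0.935 times the share of reads in siYthdf3 that they took in siNC (interval 0.927 to 0.944).

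Gene length moved with this result. The median member was 1704.5 bases long in the deposited table and the median gene compared 2917 bases, and across all genes compared shorter genes tended to have lower ratios (Spearman rho 0.20 between length and log2 ratio, across genes). After the median of 20 length bins was subtracted, the members' median was -0.05. Then 28 of 42 rows were below 0, where 50% of genes were, and 14 intervals lay below 1, where 20.6% of genes did. The share among genes averaging 20 FPKM or more was not computed with length bins subtracted. Without the subtraction it was 37.3%, so no excess over equally abundant genes can be read from the 14. Among the members themselves, rho between length and log2 ratio was 0.11 over 42 rows. The differences were small in size. The rule of size was a log2 difference of at least 0.32 (a ratio of 5 to 4). By it 5 of 42 rows were lower, where 11.4% of all genes were, and 0 were higher, where 8.78% of all genes were, so the share of members was near the background. With length bins subtracted, 1 row was lower (Psmc3ip) and 1 higher (Psmd7, at 0.34). The 5 rows were Psmc3ip, Psmg3, Psmb5, Psmf1 and Psmb6. Of the 32 members averaging 20 FPKM or more, 3 were lower by this rule, where 7.87% of such genes were and 7.62% of those within the members' range of length. At least 1.5-fold apart were 0 of 42 rows, where 3.95% of all genes were lower and 2.41% higher, and at least 2-fold apart 0 of 42, where 0.896% and 0.706% were.

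**Figure D1:**
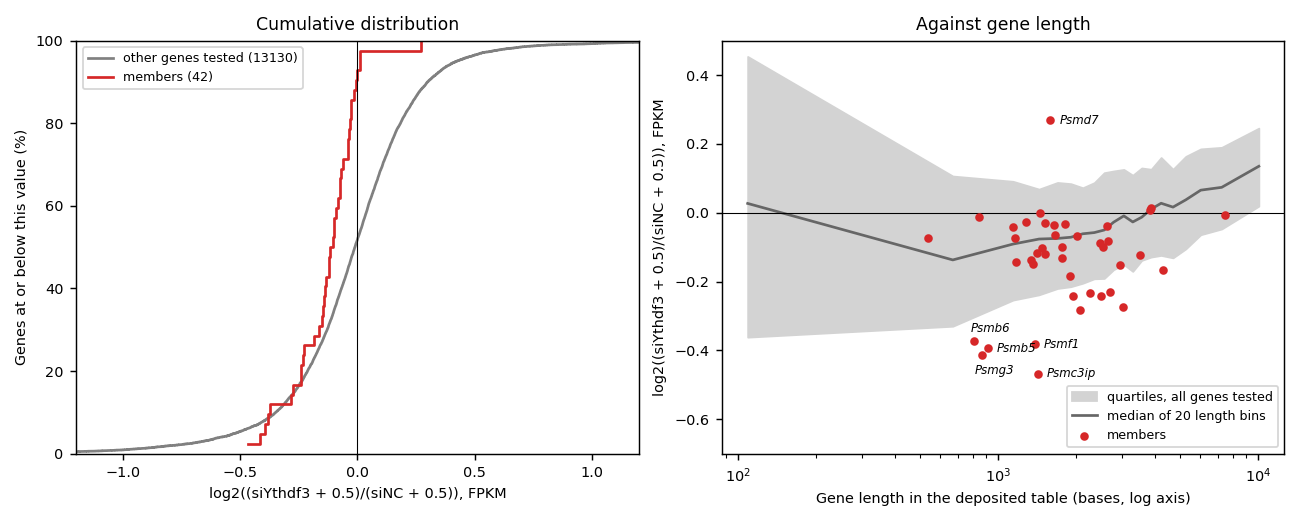
Left, the cumulative percentage of genes (vertical axis) at or below each log2 difference of siYthdf3 over siNC (horizontal axis, FPKM with 0.5 added) for the 42 members in red and the 13130 other genes compared in grey; right, the same difference for each member against gene length in bases on a log axis, over the median (line) and quartiles (band) of all genes compared in 20 length bins. The red curve reaches 92.9% at 0, and Psmd7 lies apart above it at 0.27, while 28 of 42 members lie below the median of their length bin.

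Levels of the subunits kept nearly the same order in both libraries. Across the 42 rows, Pearson's r between the libraries was 0.996 on log2 FPKM and Spearman's rho 0.995; genes share each library and are not replicates. The 7 alpha subunits ran from 23.3 FPKM (Psma1) to 276 FPKM (Psma4) in siNC and from 19.8 to 262 FPKM in siYthdf3, 11.8-fold and 13.2-fold apart. The 7 beta subunits ran from 16.2 FPKM (Psmb3) to 107 FPKM (Psmb7) in siNC and from 13.3 to 97.1 FPKM in siYthdf3. Thus subunits that occupy a ring in equal number differed widely in messenger level per length. FPKM are divided by the lengths in the table, which gives 3012, 3517 and 4290 bases to Psmb3, Psma2 and Psmc6, all low in their classes. Other members go the other way: Psmb2, at 847 bases, was at 22.2 FPKM in siNC, and Psmc1, at 2634 bases, at 170 FPKM. The part of length in these levels was not tested. RefSeq also lists 48 pseudogenes of these families for the rat, 8 of them of Psmb3 and 5 of Psma6, and 2 of the 48 have a row in the deposited table. Their sequences were not compared with the members, and whether they took or blocked reads of the members was not tested. In addition, 13 of the measured members share bases with a row on the opposite strand, and their reads are uncertain for that reason: Psmb2, Psmb3, Psmb7, Psmc1, Psmc3, Psmc5, Psmd1, Psmd6, Psmd13, Psme1, Psmf1, Psmg2 and Psmc3ip. For Psme1 the overlap is 8 bases. On the same strand, Psmc5 shares 4635 bases with Tcam1, which held 1 read in siNC and 2 in siYthdf3. Psme3ip1 shares 137 bases with LOC120098678, which held 0 and 1.

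**Figure D2:**
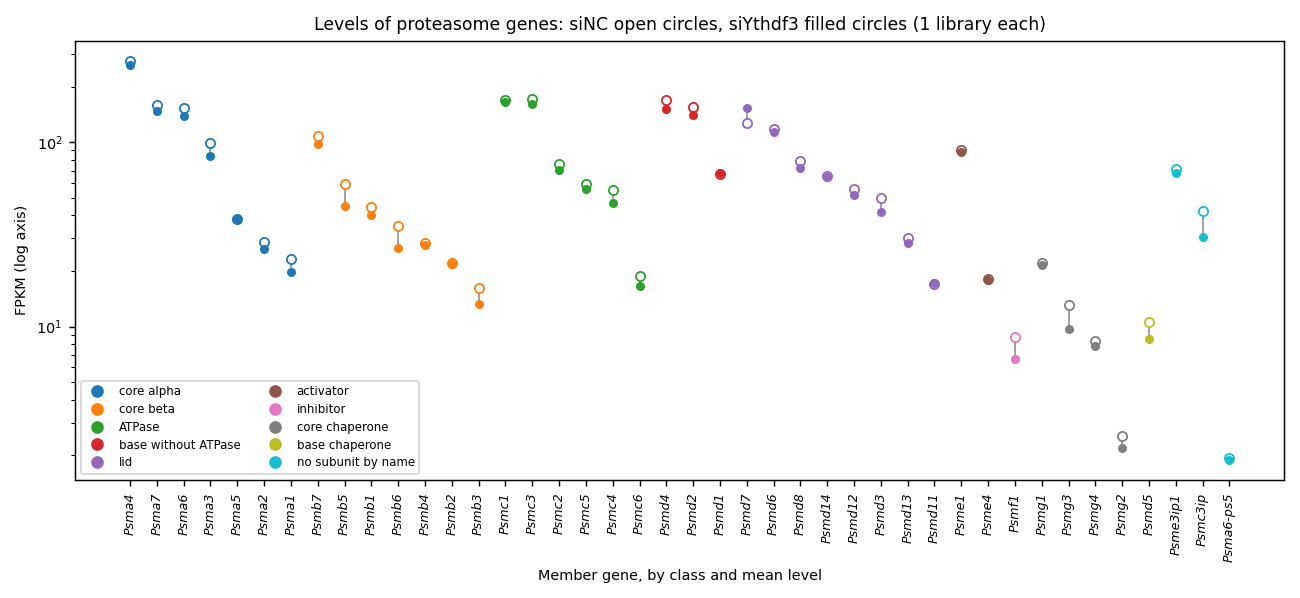
Level of each of the 42 measured members in FPKM on a log axis, with siNC as open and siYthdf3 as filled circles, 1 library each, coloured by class and ordered by mean within the class along the horizontal axis. Filled circles lie at or just under the open ones for most genes, from 1.89 FPKM for Psma6-ps5 to 276 FPKM for Psma4, and Psmd7 has the filled circle on top.

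The alpha subunits, which form the outer rings and the gate of the core, were lower by a small amount. Their median log2 difference was -0.12 over 7 genes and ranged from -0.14 to -0.06 over the alternatives computed. Of the 7 intervals, 6 lay below 1 and 0 above, where 22.2% and 20% of all genes did. Among genes averaging 20 FPKM or more, 37.3% lay below 1 and 28.0% above. Psma3 was at 98.9 FPKM in siNC and 83.6 FPKM in siYthdf3, a ratio of 0.845 (interval 0.810 to 0.883). Psma1 was at 23.3 and 19.8 FPKM, a log2 difference of -0.23 (ratio interval 0.780 to 0.926). These were the lowest ratios of the class. Psma6 followed at 153 and 139 FPKM, Psma2 at 28.7 and 26.3 FPKM and Psma7 at 159 and 147 FPKM, with ratios of 0.909, 0.918 and 0.921. Psma4, the most abundant member in both libraries, was at 276 and 262 FPKM, a log2 difference of -0.07 (ratio interval 0.916 to 0.985). That difference was 0.02 once length bins were subtracted. Psma5 was at 38.2 FPKM in both libraries, with a ratio of 0.999 (interval 0.915 to 1.09).

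Among the beta subunits, the genes of the 3 active sites had unequal ratios. Psmb5, which encodes the chymotrypsin-like active site, was at 59.4 FPKM in siNC and 45.1 FPKM in siYthdf3, on 837 and 933 reads, a ratio of 0.760 (interval 0.691 to 0.835). Psmb6, which encodes the caspase-like site, was at 34.8 and 26.8 FPKM, with 435 and 491 reads, giving a ratio of 0.769 (interval 0.675 to 0.877). Psmb7, which encodes the trypsin-like site, was at 107 and 97.1 FPKM, a ratio of 0.905 (interval 0.853 to 0.960). The first pair had the lowest ratios of all 14 core subunits, and Psmb7 lay near the middle of the core. Whether the 3 genes differ between conditions in different degree cannot be tested with 1 library each. In log2 terms Psmb5 and Psmb6 were at -0.39 and -0.37, and at -0.26 and -0.24 after length bins were subtracted; both are short in the table, at 916 and 811 bases. Of the reads of the 7 beta genes, Psmb5 took 14.1% in siNC (exact 95% interval 13.2 to 15.0) and 12.2% in siYthdf3 (11.5 to 13.0). The share of Psmb6 was 7.32% (6.67 to 8.02) and 6.44% (5.90 to 7.01), and that of Psmb7 32.6% (31.4 to 33.8) and 33.7% (32.6 to 34.8). In the deposited table Psmb5 lies on chromosome 15 from 28072781 to 28077440 on the minus strand and Psmb6 on chromosome 10 from 55239241 to 55241586 on the plus strand.

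The other beta subunits are structural. Psmb3 was at 16.2 FPKM in siNC and 13.3 FPKM in siYthdf3 (ratio 0.822, interval 0.745 to 0.906), and Psmb1 at 44.2 and 40.3 FPKM (ratio 0.911, interval 0.845 to 0.983). Reads of Psmb3 are uncertain, since its locus overlaps by 3369 bases the opposite-strand gene Pip4k2b, at 32.1 and 35.8 FPKM, and whether counting used strand is unknown here. Psmb4 was at 28.5 and 27.7 FPKM and Psmb2 at 22.2 and 22.0 FPKM, and both intervals include 1. The class median was -0.14 over 7 genes and ranged from -0.17 to -0.06 over the alternatives. Of the 7 intervals, 5 lay below 1 and 0 above, where 22.2% and 20% of all genes did. Among genes averaging 20 FPKM or more, 37.3% lay below 1 and 28.0% above. The share of all reads in siYthdf3 over that in siNC was 0.902 (interval 0.887 to 0.917) over the 14 core genes, against 0.953 (interval 0.942 to 0.964) over the 17 genes of the ATPase ring, base and lid. Psmd7, described with the lid, is among the latter, and the subunits outside the rule are not. These intervals cover counting error of the summed reads and not the spread between genes, and the difference was not tested. With length bins subtracted, the class medians were -0.06 for alpha and -0.06 for beta subunits. They were then -0.07 for the base without ATPases, -0.03 for the ATPases and -0.02 for the lid.

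The immunoproteasome genes Psmb8, Psmb9 and Psmb10, which replace the active-site subunits when interferon acts and which the rule leaves out, were low in both libraries. Psmb8 was at 3.58 FPKM in siNC and 3.19 FPKM in siYthdf3, Psmb9 at 2.89 and 2.74 FPKM and Psmb10 at 3.82 and 3.49 FPKM. Their log2 differences were -0.14, -0.07 and -0.11, on 78 and 102, 87 and 121, and 179 and 240 reads. The median over the 42 proteasome rows was -0.11. All 3 intervals include 1, as did those of 7623 of the 13172 genes compared. Differences of this size were not detectable at this depth, so the intervals do not show equal levels. Psmb5 stood 16.6-fold above Psmb8 in siNC and 14.1-fold in siYthdf3. Psmb6 stood 12.1-fold and 9.80-fold above Psmb9, and Psmb7 28.1-fold and 27.8-fold above Psmb10. The constitutive form thus made up most of the active-site messenger in both libraries.

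Promoter sequences are shown for the 2 active-site genes with the lowest core ratios and for Psmd7, the row with an interval above 1; these genes were chosen after their values were seen. The sequences are RefSeq's, build GRCr8, matched by symbol, and run 5′ to 3′ on the gene's strand. The Psmb5 sequence is chr15:32047380-32047629 on the minus strand, that of Psmb6 chr10:55737638-55737877 on the plus strand and that of Psmd7 chr19:52411317-52411566 on the minus strand. Those of Psmb5 and Psmd7 are the 250 bases before the start in the promoter table. For Psmb6 the first 240 of them are printed, since RefSeq's gene record begins 36 bases before that start and the last 26 bases printed lie within it. Capitals mark matches, on either strand, to TGACNNNGC (the core of the antioxidant response element, bound by NFE2L1 and NFE2L2, which control proteasome genes), CCAAT (bound by NF-Y), CCGGAAG (ETS factors), GGGCGG (SP and KLF factors) or TATAAA (the TATA box).
Psmb5: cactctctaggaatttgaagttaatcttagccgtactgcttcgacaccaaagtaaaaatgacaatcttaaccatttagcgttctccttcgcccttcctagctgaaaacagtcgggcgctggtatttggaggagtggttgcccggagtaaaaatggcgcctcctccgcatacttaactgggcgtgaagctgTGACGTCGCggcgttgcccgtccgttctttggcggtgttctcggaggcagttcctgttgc
Psmb6: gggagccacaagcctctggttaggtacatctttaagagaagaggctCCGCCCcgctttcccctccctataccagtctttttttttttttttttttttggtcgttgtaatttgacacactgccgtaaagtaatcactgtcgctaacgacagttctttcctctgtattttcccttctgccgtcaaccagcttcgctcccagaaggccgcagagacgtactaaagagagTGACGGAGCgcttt
Psmd7: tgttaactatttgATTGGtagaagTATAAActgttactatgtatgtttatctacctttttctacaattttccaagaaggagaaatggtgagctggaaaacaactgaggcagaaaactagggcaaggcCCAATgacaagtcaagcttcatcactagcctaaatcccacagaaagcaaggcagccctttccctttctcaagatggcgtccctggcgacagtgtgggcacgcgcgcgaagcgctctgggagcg
In the printed stretches, Psmb5 and Psmb6 hold 1 match each to the antioxidant core on the gene's strand, beginning at bases 191 and 227. Psmb6 also holds the reverse complement of GGGCGG. Psmd7 holds CCAAT at 2 places, 1 of them on the opposite strand, and TATAAA far from the start, at base 25. No matches in the printed stretches overlap each other.

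Over the promoter table, motif matches were counted in the window from 250 bases before to 50 after the start, for the 35 of 39 measured proteasome genes that matched a symbol (Psma7, Psmd6, Psmd12 and Psmd14 had none). The antioxidant core was in 7 of 35 windows (20%), in 14.5% of the 9471 protein-coding genes compared and in 12.2% of all 27457 promoters. The 7 genes were Psma3, Psmb2, Psmb5, Psmb6, Psmd1, Psmd3 and Psme4. Their log2 differences had a median of -0.23, against -0.12 for the 28 without, but Psmb2 at -0.01, Psmd1 at 0.01 and Psme4 at -0.01 carry the match too. The ETS motif was in 13 of 35 windows (37.1%), in 18.7% of protein-coding genes compared and in 9.22% of all promoters. GGGCGG was in 26 of 35 (74.3%), against 63.2% and 34.9%, CCAAT in 16 (45.7%), against 38.2% and 37.7%, and TATAAA in 4 (11.4%), against 6.21% and 14.3%. None of these differences was tested, and a match is no evidence of binding. With only the 250 bases before the start, the ETS motif was in 10 windows and the antioxidant core in 6, and the median of genes with that core was -0.13.

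The 6 ATPases, which form the motor ring of the base, were lower within a narrow range. Psmc4 was at 55.0 FPKM in siNC and 46.4 FPKM in siYthdf3, a ratio of 0.845 (interval 0.791 to 0.902), the lowest of the ring. Psmc6 was at 18.7 and 16.6 FPKM, a ratio of 0.889 (interval 0.825 to 0.958). Psmc2 was at 76.0 and 70.8 FPKM, Psmc3 at 171 and 160 FPKM and Psmc5 at 59.2 and 55.6 FPKM, with ratios of 0.931, 0.934 and 0.939. Psmc1, from 6882 and 9823 reads, was at 170 and 165 FPKM with a ratio of 0.973 (interval 0.943 to 1.00), and its log2 difference of -0.04 was 0.01 after rescaling to TPM or with length bins subtracted. The class median was -0.10 and ranged from -0.12 to -0.03 over the alternatives. Of the 6 intervals, 5 lay below 1 and 0 above, where 22.2% and 20% of all genes did. Among genes averaging 20 FPKM or more, 37.3% lay below 1 and 28.0% above.

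In the rest of the base, the large scaffold subunit gene Psmd2 was at 155 FPKM in siNC and 139 FPKM in siYthdf3, a log2 difference of -0.15 (ratio interval 0.873 to 0.929). Psmd4, a receptor for ubiquitin chains, was at 168 and 152 FPKM, a ratio of 0.902 (interval 0.863 to 0.943). The second scaffold gene, Psmd1, was at 67.4 and 68.0 FPKM, a ratio of 1.01 (interval 0.969 to 1.05). The interval of Psmd1 includes 1, and the difference between the scaffold genes was not tested. Among subunits outside the rule, the ubiquitin receptor Adrm1 of the base was at 60.8 and 56.2 FPKM (ratio 0.924, interval 0.863 to 0.989). Sem1, a small lid subunit, was at 199 and 158 FPKM (ratio 0.795, interval 0.751 to 0.840).

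The lid held the one member whose interval lay above 1. Psmd7, a structural partner of the lid's deubiquitinase, was at 127 FPKM in siNC and 153 FPKM in siYthdf3, counted from 3108 and 5502 reads, with a ratio of 1.21 (interval 1.15 to 1.26). Of the genes compared, 88.1% had a lower log2 ratio than its 0.27, so the value is high for a proteasome gene and moderate for the table. Its log2 difference was 0.32 after rescaling to TPM and 0.34 with length bins subtracted. Psmd14, the deubiquitinase that pairs with it, was at 65.7 and 64.4 FPKM, a ratio of 0.980 (interval 0.918 to 1.05). Of the reads of the 8 lid genes that the rule found, Psmd7 thus took 19.9% in siNC (exact 95% interval 19.3 to 20.6) and 24.2% in siYthdf3 (23.7 to 24.8). No other row of the table overlapped its locus (ENSRNOG00000014097, chromosome 19, 35494316 to 35501588, minus strand, in the deposited table, whose build is unknown here).

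The other lid genes that the rule found were at or slightly below their siNC level. Sem1, the lid subunit outside the rule, had a lower ratio than these, 0.795 (interval 0.751 to 0.840). Psmd3 was at 49.4 FPKM in siNC and 42.0 FPKM in siYthdf3, a ratio of 0.849 (interval 0.797 to 0.906). Psmd8 was at 78.6 and 72.3 FPKM and Psmd12 at 55.7 and 51.9 FPKM, with ratios of 0.920 and 0.932 and intervals below 1. These 3 are scaffold subunits of the lid. Psmd13 at 30.0 and 28.4 FPKM, Psmd6 at 118 and 113 FPKM and Psmd11 at 17.1 and 17.2 FPKM had intervals that include 1. The share of reads of the 8 lid genes found by the rule, which leaves out Sem1, had a ratio of 0.991 (interval 0.971 to 1.01). Without Psmd7 it was 0.938 (interval 0.917 to 0.960). The median of these 8 genes was -0.07 and ranged from -0.08 to -0.02 over the alternatives, nearest to 0 with length bins subtracted. Of their 8 intervals 3 lay below 1 and 1 above, where 22.2% and 20% of all genes did, and 37.3% and 28.0% of those averaging 20 FPKM or more.

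**Figure D3:**
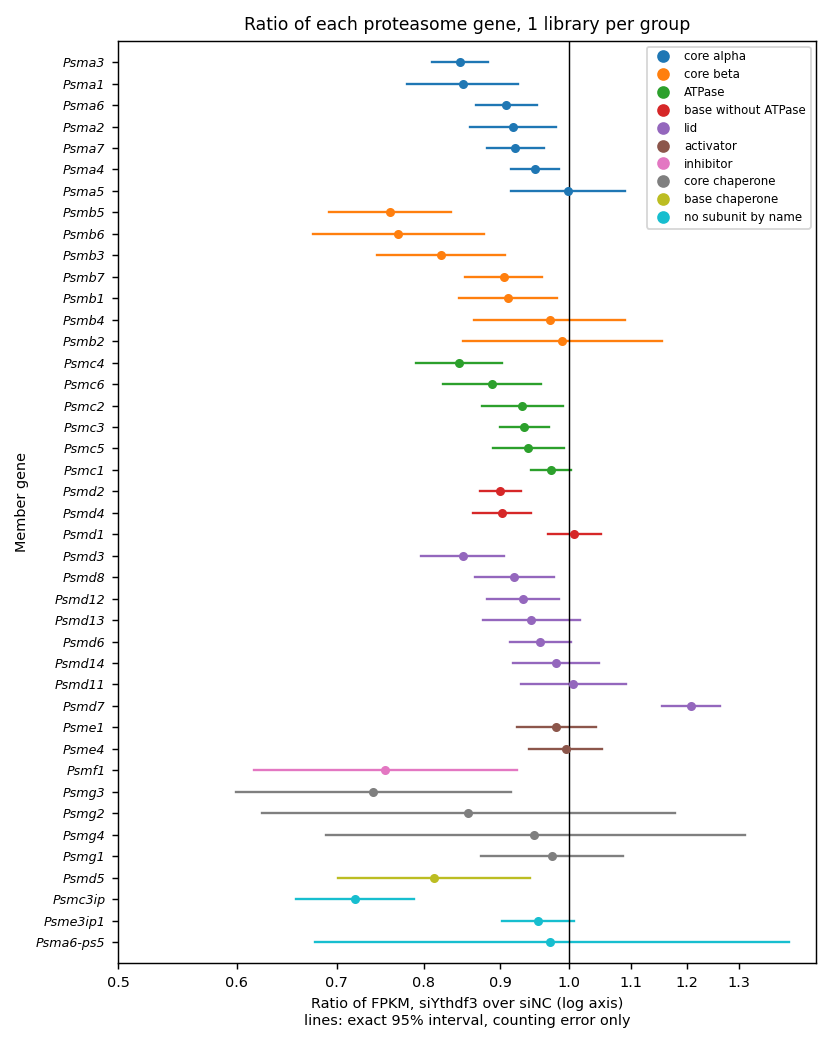
Ratio of FPKM, siYthdf3 over siNC, on a log axis for each of the 42 measured members, coloured by class, with points for the ratio and lines for the exact 95% interval, which covers counting error only. Most points lie left of 1, Psmb5 and Psmb6 lie furthest left in the core at 0.760 and 0.769, and Psmd7 alone has its line right of 1.

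The activators showed almost equal levels. Psme1, a subunit of the ring-shaped cap induced by interferon, was at 90.3 FPKM in siNC and 88.6 FPKM in siYthdf3 (ratio 0.981, interval 0.923 to 1.04). Psme4, a large single-chain cap, was at 18.0 and 17.9 FPKM (ratio 0.995, interval 0.941 to 1.05). Their median of -0.02 was 0.03 after rescaling to TPM, so no direction is given. Psmf1, which binds the core and inhibits it in the test tube, was at 8.83 and 6.65 FPKM, with 188 and 208 reads and a ratio of 0.754 (interval 0.616 to 0.923). Its log2 difference was -0.38.

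Of the chaperones that assemble the core, Psmg3 was at 13.0 FPKM in siNC and 9.63 FPKM in siYthdf3, a ratio of 0.741 (interval 0.599 to 0.916) on 173 and 188 reads. Psmg1, Psmg2 and Psmg4 had ratios of 0.975, 0.856 and 0.948, with intervals that include 1. Psmg2 and Psmg4 rested on 74 and 93 and on 69 and 96 reads, and differences of their size were not detectable at this depth. Psmd5, a chaperone of the base, was at 10.6 and 8.60 FPKM, a ratio of 0.813 (interval 0.702 to 0.942). The core assembly factor Pomp, outside the rule, was at 6.96 and 6.47 FPKM (ratio 0.929, interval 0.799 to 1.08). The nuclear import factors of the core, Ipo9 and Akirin2, were at ratios of 0.901 (interval 0.860 to 0.944) and 0.963 (interval 0.893 to 1.04).

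The lowest ratio of the 42 rows belonged to Psmc3ip, which is no proteasome subunit. It was at 42.4 FPKM in siNC and 30.5 FPKM in siYthdf3, a ratio of 0.720 (interval 0.657 to 0.788). Its locus shares 3474 bases with the opposite-strand gene Mlx, at 26.3 and 25.3 FPKM, so its reads are uncertain. Psme3ip1 was at 71.2 and 67.9 FPKM (ratio 0.953, interval 0.902 to 1.01) and Psma6-ps5 at 1.94 and 1.89 FPKM. Without these 3 rows the median was -0.12 and 4 of 39 genes were lower by the rule of size.

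Genes around the proteasome were taken from lists drawn up beside the members and did not all go the same way. Of the 2 ubiquitin genes reported, both had intervals below 1, where 22.2% of all genes did and 37.3% of those averaging 20 FPKM or more. Ubb, a polyubiquitin gene, was at 1071 FPKM in siNC and 1003 FPKM in siYthdf3 (ratio 0.937, interval 0.926 to 0.948). Rps27a, which encodes ubiquitin fused to a ribosomal protein, was at 266 and 221 FPKM (ratio 0.829, interval 0.795 to 0.865). The ubiquitin-activating enzyme Uba1 was at 71.6 and 64.5 FPKM (ratio 0.901, interval 0.865 to 0.939), and Uba6 at 5.05 and 4.69 FPKM with an interval that includes 1.

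The transcription factors that drive proteasome genes had ratios above 1, 1 of them with an interval above 1, where 20% of all genes had one. Nfe2l1, which raises proteasome genes when the proteasome is inhibited, was at 41.8 FPKM in siNC and 43.5 FPKM in siYthdf3 (ratio 1.04, interval 0.995 to 1.09). Ddi2, the protease that activates its product, was at 7.82 and 7.96 FPKM (ratio 1.02, interval 0.901 to 1.15). Nfe2l2, the factor of the antioxidant response, was at 15.9 and 19.9 FPKM (log2 difference 0.31, ratio interval 1.14 to 1.38). The fourth gene of this list, Ngly1, which removes glycans from the Nfe2l1 protein, was at 6.57 and 6.53 FPKM (ratio 0.994, interval 0.845 to 1.17). The activity of these proteins was not measured.

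Factors that bring substrates to the proteasome had values on both sides of 1. Of 7 shuttle and receptor genes, 2 intervals lay above 1 and 0 below, where 20% of all genes lay above and 22.2% below, with Rad23b at 81.2 and 86.5 FPKM (ratio 1.06, interval 1.02 to 1.11) and Sqstm1 at 94.0 and 99.2 FPKM (ratio 1.06, interval 1.02 to 1.09). Their median was 0.04. Of 8 genes of the p97 unfoldase system, 5 intervals lay below 1 and 2 above, with Ubxn4 at a log2 difference of 0.17 and Ufd1 at -0.11. Of 8 proteasome-associated genes, which include the member Psme3ip1, 1 interval lay below 1 and 3 above, with Fbxo7 at 0.22 and Zfand2a at 0.20. For all 3 lists the shares of all genes were 22.2% below 1 and 20% above. Among genes averaging 20 FPKM or more they were 37.3% and 28.0%. The proteasome's deubiquitinases Usp14 and Uchl5 were at ratios of 1.04 (interval 0.951 to 1.14) and 0.914 (interval 0.820 to 1.02).

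A pair of other large complexes is set beside the proteasome for scale. The COP9 signalosome, a complex whose subunits are relatives of the lid's, had a median log2 difference of -0.13 over 10 genes, with 5 intervals below 1 and 1 above, Cops9 at -0.36 and Cops5 at -0.23. The chaperonin TRiC, which folds tubulin and actin, had a median of -0.16 over 8 genes, with 8 of 8 intervals below 1, Cct3 at -0.24 and Cct2 at -0.22. Medians of the size seen for proteasome genes were thus found in both of these complexes too. Of all genes compared, 22.2% of intervals lay below 1 and 20% above. Among genes averaging 20 FPKM or more, 37.3% and 28.0% did. The cell cycle list, with a median of -0.88 in the same libraries, lay much further from 0.

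**Figure D4:**
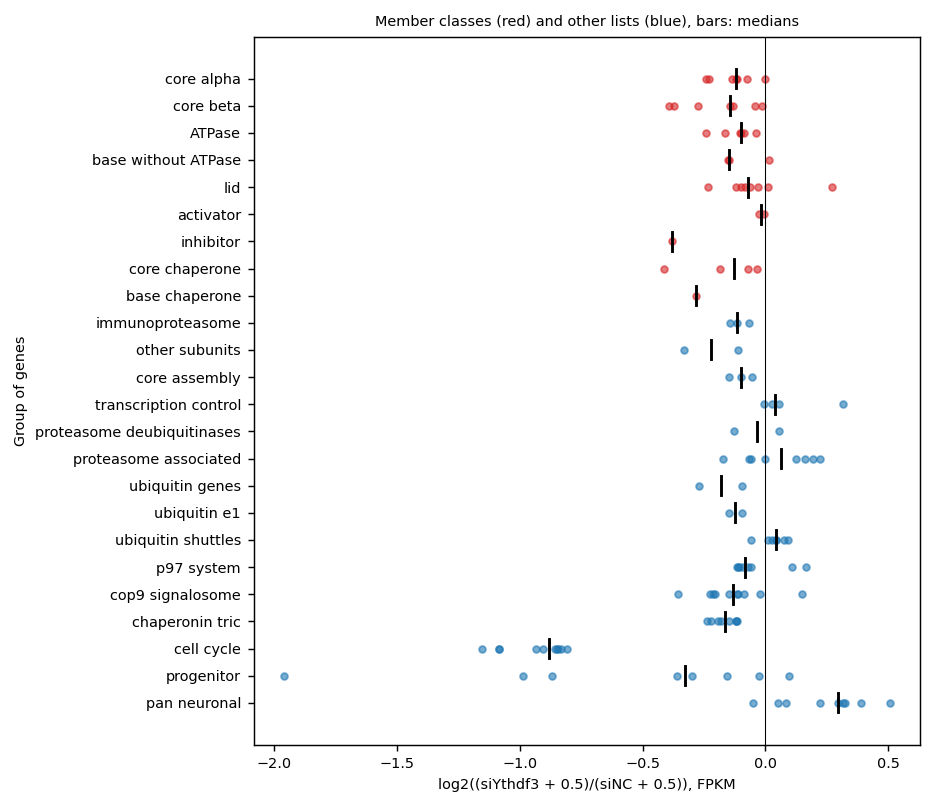
log2 difference of siYthdf3 over siNC (horizontal axis, FPKM with 0.5 added) for each measured gene of the member classes in red and of the other lists in blue, with a bar at each median. The member classes drawn lie between -0.41 and 0.27, close to TRiC and the COP9 signalosome. The 3 rows that are no subunit by name are not among the red points. Cell cycle genes lie at -0.81 or lower and pan-neuronal markers have a median of 0.30.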

How the data were processed

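The authors deposited 1 table of FPKM values per gene and library, with gene identifiers, symbols, coordinates and lengths, per the file headers. The submitters' processing notes list STAR 2.7.6a and fastp 0.23.2, Subread 1.5.1 with featureCounts, StringTie 2.1.4 and edgeR 3.40.2, with no order. The sources used here do not give the build, the annotation, the strand setting or any collapse by molecular identifier (per the labels' protocols the kit tags each cDNA). If copies of 1 molecule were counted, the intervals are too narrow.

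Whole reads were recovered from FPKM and length in 100% of values (tolerance 0.05 of a read). A row at 0 allows up to 3 reads, which for 1 kilobase is 0.195 FPKM (siNC) or 0.133 FPKM (siYthdf3). The measure was log2 of siYthdf3 over siNC after adding 0.5 FPKM, which understates low genes, and the 13172 rows averaging 1 FPKM or more entered. Samples were grouped by title, and no test was possible. Named are all members, stated genes of the pathway and, from other lists, the 2 members with the largest differences. The members and lists were chosen with earlier results of these data known; of 113 list entries 109 matched, and some genes of the pathway are not reported here. The 3 promoters printed and the mean of 20 FPKM as a background in the text were chosen after values were seen. Alternatives were other pseudocounts, filters, scalings, length bins, thinning, protein-coding genes and the members' definition. The calculation was tested on simulated data. Python 3.11.15, numpy 2.4.6, pandas 2.3.3, scipy 1.17.1 and matplotlib 3.10.9 were used.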

Additional observations from a re-analysis of the deposited data

How the results depend on the processing

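The members' median stayed below 0 under the alternatives computed, from -0.12 to -0.05, and so did the medians of the classes except those of the 2 activators after rescaling to TPM (0.03) and of the 3 rows that are no subunit by name with length bins subtracted (0.00). With length bins subtracted, 14 intervals lay below 1 in place of 25, and 1 row (Psmc3ip) in place of 5 was lower by the rule of size (log2 difference of at least 0.32), while 1 row (Psmd7, at 0.34) in place of 0 was higher. At a mean of at least 20 FPKM, 3 rows of 32 were lower by that rule. Under the 1.5-fold rule and the 2-fold rule the count was 0. After rescaling to TPM, 17 intervals lay below 1 in place of 25, where 15.0% of genes did. Above 1 were then 2 in place of 1, where 23.6% of genes were. Shares among genes averaging 20 FPKM or more, which have narrower intervals, were not computed for TPM or for length bins. Without Psmd7, left out after its value was seen, the share of reads had a ratio of 0.925. Of the 42 members, 14 changed sign under at least 1 alternative, all of them between -0.07 (Psma4) and 0.01 (Psmd11), and none of the 5 past the rule of size did. Below 100 reads (Psmg2, Psmg4 and Psma6-ps5 in both libraries) depth limits what can be seen. A comparison of protein sequences between members was not run. No paired analysis was possible because each group has 1 library.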
